A study of Mus musculus with 18 samples.

Results

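Indole-3-carboxaldehyde (ICA) was compared with its vehicle in mice that had received donor T cells, by gene expression in the ileum, the last part of the small intestine, on day 21 after transplant. The members were chosen by treatment alone: the 5 arrays of T cell mice given ICA and the 4 arrays of T cell mice given vehicle, 9 of the 18 arrays of the series, with 1 mouse per array. Every recipient in the series was a B10.BR mouse aged 8 to 12 weeks that was irradiated with 11 Gy and then given 5000000 T cell depleted bone marrow cells (TCD-BM) from allogeneic C57BL/6 donors. The mice compared here also received 2000000 purified T cells of the same donor strain and developed graft-versus-host disease (GvHD). Treatment by oral gavage ran daily from the day before transplant to harvest, with ICA at 150 mg/kg or with the vehicle alone, which held 20% DMSO, 40% PEG400 and 2% citric acid. The other 9 mice received the marrow without T cells and the same treatments (5 given ICA, 4 given vehicle); they are called marrow-only mice and entered the model as the reference for what ICA does without donor T cells. The hour at which tissue was taken is not given in the sources used here.

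In GvHD, donor T cells recognise the tissue type of the recipient as foreign and damage the gut epithelium, skin and liver; in the crypts of the small intestine they injure stem cells and Paneth cells. ICA is made by gut bacteria from tryptophan and is a ligand of the aryl hydrocarbon receptor (AhR), a transcription factor that induces drug-metabolising enzymes such as Cyp1a1 and its own repressor, Ahrr. The comparison asks which transcripts of the diseased ileum differed with daily ICA.

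Values are log2 signals of the array, so a difference of 1 is a doubling. The arrays had medians of 6.47 to 6.51, and pairs of T cell mice had r of 0.983 to 0.992, taken over genes as a description. The array of T cell ICA mouse 1 stood apart from the others of its group: its interquartile range was 2.53 against 2.68 to 2.76 in the other T cell mice, and its median r with its own group was 0.9849 against 0.9889 to 0.9905 within the ICA group. The labelled tissue carried its defining markers, with Fabp6, the ileal bile acid binding protein, at 12.26 to 12.71 in the T cell mice and Slc10a2, the ileal bile acid transporter, at 10.33 to 10.96. Signals of different genes are not calibrated against each other. The mean over 9 genes of pancreatic acinar cells, a tissue next to the gut, was 5.64 to 6.11. RNA from a piece of tissue cannot tell fewer cells of a type from less RNA per cell, and this holds for every result that follows.

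The promoters of the 3 genes that passed the test across all genes, and that of Cyp1a1, are shown because clock factors and the AhR act through short DNA motifs. Sites further upstream of these genes were not read. Each window is from RefSeq (GRCm38.p6), spans 300 bases, most of them before an annotated transcript start, and is written 5′ to 3′ on the strand of the gene. Per3 lies at chr4:151044616-151044915 on the minus strand, Ciart at chr3:95882179-95882478 on the minus strand, Gm15998 at chr3:89316496-89316795 on the plus strand and Cyp1a1 at chr9:57697363-57697662 on the plus strand. Capitals mark D-boxes (TTATGTAA or TTACGTAA) and E-boxes (CACGTG) in Per3 and Ciart, the only motif found, an AhR core, in Gm15998, and the AhR core (GCGTG) in Cyp1a1.
Per3: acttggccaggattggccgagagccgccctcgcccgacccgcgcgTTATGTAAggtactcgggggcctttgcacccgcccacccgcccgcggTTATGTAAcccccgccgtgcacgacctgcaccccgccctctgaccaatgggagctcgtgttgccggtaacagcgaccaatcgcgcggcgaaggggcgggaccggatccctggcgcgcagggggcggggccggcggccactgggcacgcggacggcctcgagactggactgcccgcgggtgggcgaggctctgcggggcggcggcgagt
Ciart: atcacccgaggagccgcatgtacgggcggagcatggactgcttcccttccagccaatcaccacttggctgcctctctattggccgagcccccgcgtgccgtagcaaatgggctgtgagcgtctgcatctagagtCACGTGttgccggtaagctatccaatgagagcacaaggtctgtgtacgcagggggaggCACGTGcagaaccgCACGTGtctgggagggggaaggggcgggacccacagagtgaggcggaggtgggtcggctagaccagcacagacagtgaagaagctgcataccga
Gm15998: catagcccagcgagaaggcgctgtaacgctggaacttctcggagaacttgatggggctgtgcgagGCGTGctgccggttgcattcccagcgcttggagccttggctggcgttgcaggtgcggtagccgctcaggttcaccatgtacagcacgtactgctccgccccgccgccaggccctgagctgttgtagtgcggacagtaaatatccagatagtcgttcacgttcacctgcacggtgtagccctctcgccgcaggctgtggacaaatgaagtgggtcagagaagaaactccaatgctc
Cyp1a1: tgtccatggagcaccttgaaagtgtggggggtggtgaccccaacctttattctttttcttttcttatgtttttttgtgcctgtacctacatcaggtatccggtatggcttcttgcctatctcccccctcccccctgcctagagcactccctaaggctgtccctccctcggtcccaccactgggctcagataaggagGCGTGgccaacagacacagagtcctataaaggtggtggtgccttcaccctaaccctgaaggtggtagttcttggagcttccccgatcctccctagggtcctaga

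The Per3 window held 2 D-boxes, the site of the PAR-bZIP clock output factors, the first at position -205 from the start, and no E-box; an AhR core on the other strand stood at position -15. The Ciart window held 3 E-boxes, the site of the clock activators, the first at position -116, and an AhR core at position -158. Among 32851 promoter windows of this length, read on both strands, 7.15% held an E-box and 1.06% a D-box. The Gm15998 window held 1 AhR core at position -185 and none of the other motifs searched (E-box, D-box, the RORE core AGGTCA, the interferon-stimulated response element and the sterol element TCACNCCAC). The Cyp1a1 window held 1 AhR core at position -54, a motif found in 32.4% of windows. A match is a description of these letters and not evidence of binding.

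Across 22180 genes, 3 passed the test (limma, adjusted p under 0.05 after Benjamini-Hochberg adjustment), which is 0.0135% of the genes tested, and all were lower with ICA. They were Per3, a period gene of the circadian clock, Ciart, a transcriptional repressor within the clock, and Gm15998, a long noncoding RNA. Transcripts of clock genes vary with the hour of the day. With the hour of harvest not given, a difference in hour between the groups cannot be told apart from ICA for these genes and was not tested. No gene passed in the higher direction. At an unadjusted limma p under 0.05, which some genes meet without any difference, stood 1529 of the 22180 genes, 679 higher and 850 lower. The same count in marrow-only mice was 1669. Over all genes the median difference was -0.010.

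Per3 signal was 8.08, 8.43, 8.15 and 8.26 in the mice given vehicle and 7.08, 7.56, 7.18, 7.44 and 7.38 in those given ICA. The highest ICA mouse lay 0.53 below the lowest vehicle mouse. Per3 fell by 0.91 ± 0.11 (SE; 1.87-fold lower, 95% interval -1.13 to -0.68, adjusted p = 0.00155 in limma). Ciart was at 7.92, 8.21, 7.72 and 8.06 with vehicle and at 6.90, 7.06, 7.10, 7.14 and 7.41 with ICA, again without overlap. Its fall was 1.80-fold (log2 difference -0.85 ± 0.12, limma adjusted p = 0.00788).

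Gm15998 was at 7.67, 8.20, 7.52 and 7.12 with vehicle and at 6.51, 6.67, 6.27, 5.94 and 6.23 with ICA, the largest difference of these genes. Every ICA mouse was at least 0.45 below every vehicle mouse, and the fall was 2.46-fold (log2 difference -1.30 ± 0.19, limma adjusted p = 0.0082). In RefSeq the span of Gm15998 overlaps that of Efna3, a membrane-bound ephrin ligand, whose own signal differed by -0.08 ± 0.15 (adjusted p = 0.959) with overlapping groups. Whether the probes read only the strand of Gm15998 is not stated in the sources used here.

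The calls of Ciart and Gm15998 depended on T cell vehicle mouse 2, the highest of its group for both: without it the differences were -0.77 and -1.11, each with a limma adjusted p of 0.0526, and Per3 alone passed. Over 20 alternatives the difference ran from -0.94 to -0.77 for Ciart and from -1.47 to -1.11 for Gm15998. Without ICA mouse 1, the array that stood apart, Per3, Ciart and Gm15998 were the genes that passed (adjusted p = 0.00577, 0.0245 and 0.0245). A model of the 9 T cell arrays alone called 49 genes, 26 higher and 23 lower, these 3 among them.

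In marrow-only mice, ICA minus vehicle was -0.39 ± 0.11 for Per3, 0.12 ± 0.12 for Ciart and -0.33 ± 0.19 for Gm15998. Only for Per3 among these were all marrow-only ICA mice below all marrow-only vehicle mice (6.40 to 6.70 against 6.80 to 7.24). In marrow-only mice 1 gene passed the test (0.00451% of those tested), Nr1d1, a repressor of the clock, at 9.68 to 10.53 with vehicle and 8.53 to 9.30 with ICA (-1.16 ± 0.16, limma adjusted p = 0.0132). In T cell mice Nr1d1 lay at 10.37 to 10.63 with vehicle and 10.18 to 10.47 with ICA (-0.25 ± 0.16, adjusted p = 0.808), and the interaction of 0.90 ± 0.23 had an adjusted p of 0.677. T cell mice given vehicle stood above marrow-only mice given vehicle by 1.24 for Per3, 1.44 for Ciart and 1.29 for Gm15998; this contrast shares its T cell vehicle mice with the comparison with ICA, so the values are only set side by side.

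Of 13 measured core clock genes 11 were lower and 2 higher, with Per3, Ciart, Cry2 and Nr1d2 separated lower and a median of -0.24. The separated higher genes were Npas2 and Arntl, partners in the activating arm of the clock. Arntl was at 8.62, 8.15, 8.50 and 8.23 with vehicle and 9.28, 8.79, 9.13, 9.07 and 9.16 with ICA (difference 0.71 ± 0.12, limma adjusted p = 0.0623). It passed after centring each array, with a robust prior, with array weights and with mouse number as a block. Of 6 clock output genes 5 were lower, and Dbp, a factor that binds D-boxes such as those of the Per3 window, differed by -0.73 ± 0.14 (adjusted p = 0.145).

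**Figure D1:**
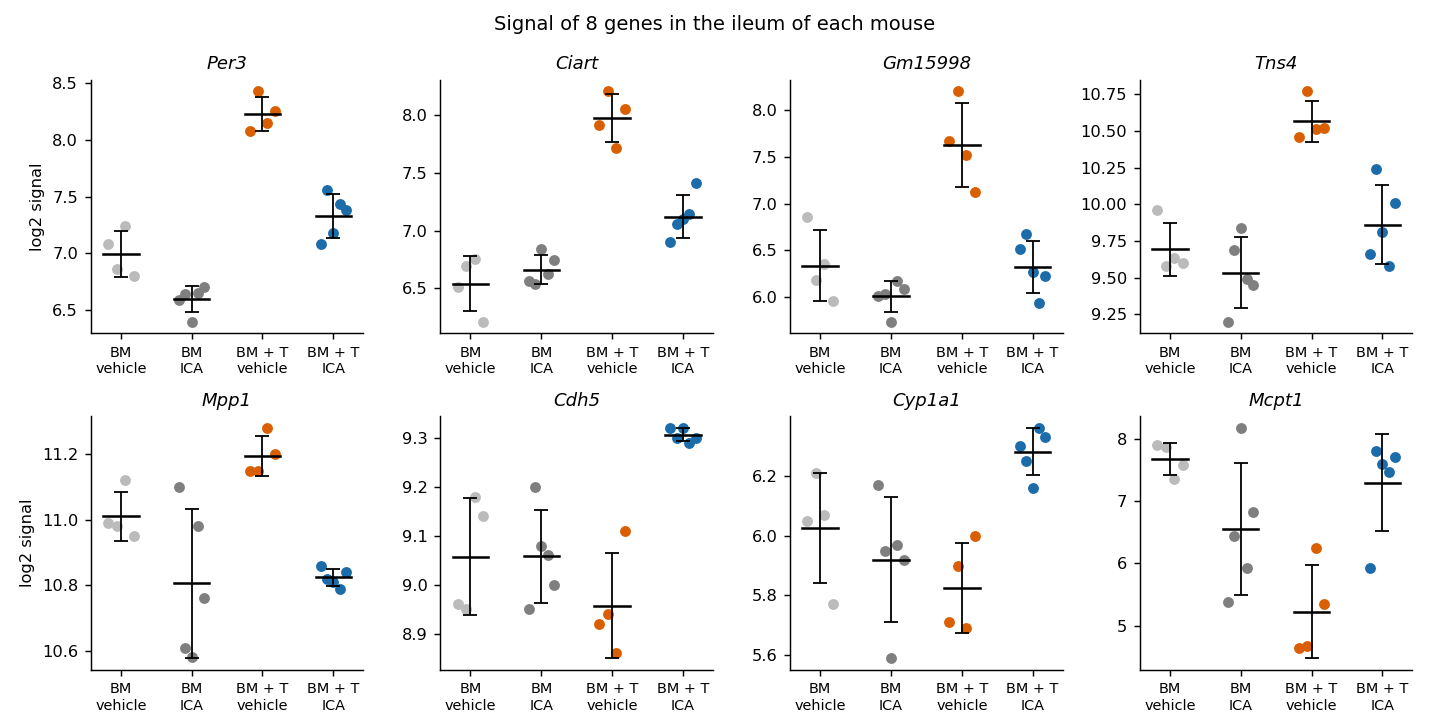
Log2 signal (y axis) of 8 genes in each of the 18 mice, by group on the x axis (BM, marrow only; BM + T, marrow and T cells). Points are mice, horizontal lines group means and bars 1 SD; Per3, Ciart, Gm15998, Tns4, Mpp1, Cdh5 and Cyp1a1 show no overlap between the T cell mice given vehicle and given ICA, and Mcpt1 overlaps through the lowest ICA mouse at 5.92.

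Complete separation, in which every mouse given ICA lay on the same side of every mouse given vehicle, was seen for 640 genes (2.89% of those tested), of which 246 were higher with ICA (1.11%) and 394 lower (1.78%). It is a count of non-overlapping groups and not a test. In marrow-only mice the same count was 483 genes (2.18%), 300 higher (1.35%) and 183 lower (0.825%). Of the 640 genes, 9 were in the clock lists and 19 in the type I interferon list, which leaves 612 outside them, 225 higher and 387 lower. Most of these differences were small: 76 of the 640 reached a log2 difference of 0.5, 53 higher and 23 lower.

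The balance of directions moved with the scaling and with a single array. The higher genes made up 38.4% of separated genes on the deposited values, 48% after a further quantile normalization (332 higher, 360 lower) and 53.2% after centring each array on its median (308 higher, 271 lower). Without ICA mouse 1 they made up 51.6% of 1265 genes (653 higher, 612 lower), where fewer mice have to be separated. Lower genes were thus in excess on the deposited scale with this array included, and not after centring or without the array.

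Among genes with a mean signal of 9 or more, 4.53% were separated lower and 1.59% higher, against 0.373% and 0.871% among genes under 5. At this high signal the lower share was also the larger under each scaling (3.13% lower and 2.5% higher after quantile normalization, 3.05% and 1.84% after centring) and without ICA mouse 1 (5.73% and 4.31%). At the other end of the scale, 1394 genes of olfactory and vomeronasal receptors were measured, which sense odours and pheromones in the nose; 17 of them were separated higher (1.22%) and 3 lower (0.215%). Olfr658 was among those separated higher, at 3.70 to 4.10 with vehicle and 4.53 to 5.09 with ICA. The difference was 0.83 ± 0.25 (limma adjusted p = 0.406), at levels near the bottom of the array's range. In marrow-only mice it was highest in ICA mouse 1 (5.00, others 3.52 to 3.76) and vehicle mouse 3 (4.71, others 3.69 to 3.90). These mice also had the highest marrow-only means of the interferon list (9.64 and 9.68). Whether Olfr658 follows the interferon genes was not tested.

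ICA mouse 2 most often lay nearest to the vehicle group, for 90 of the 246 higher and 129 of the 394 lower genes. On the vehicle side mouse 3 was nearest most often, for 84 and 120 genes.

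**Figure D2:**
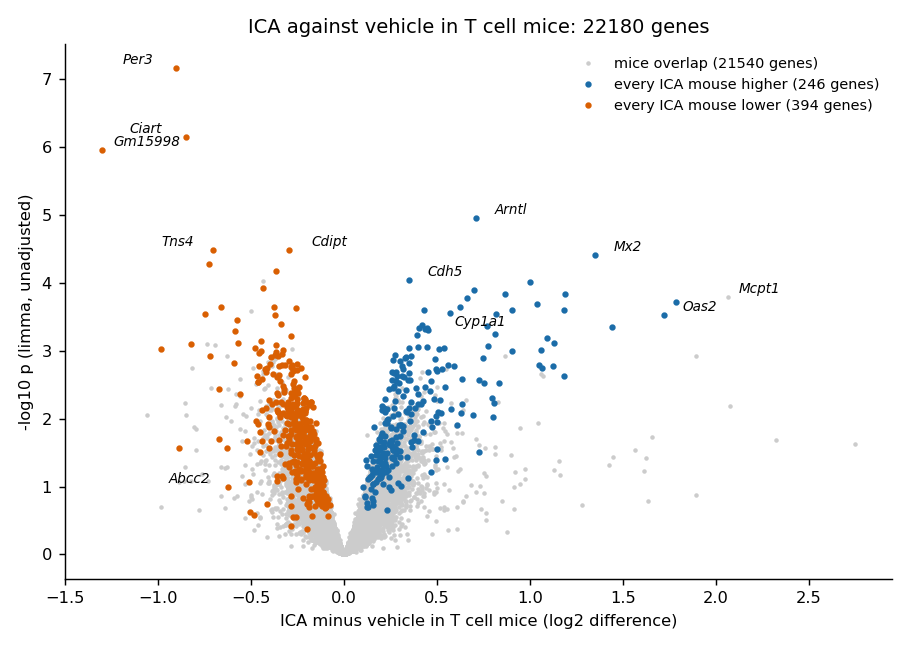
Each point is 1 of 22180 genes, with the log2 difference ICA minus vehicle in T cell mice on the x axis and -log10 of the unadjusted limma p on the y axis. Blue and orange points are the 246 and 394 genes for which every ICA mouse was above or below every vehicle mouse, and the 3 genes that passed the adjusted threshold, Per3, Ciart and Gm15998, stand at the upper left.

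**Figure D3:**
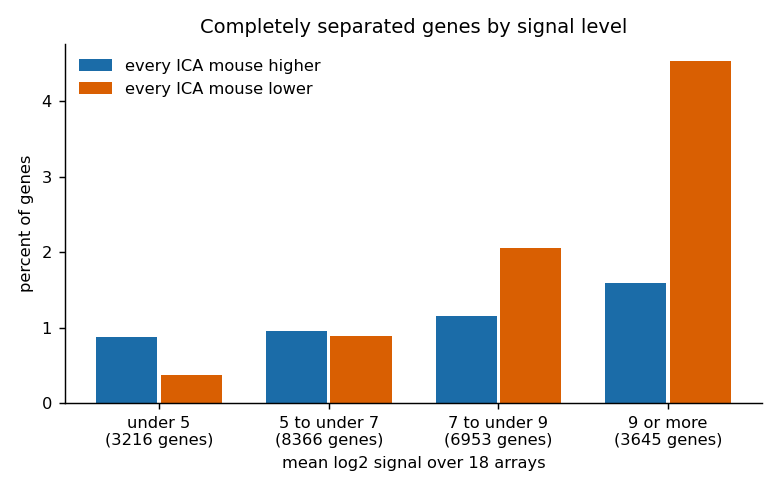
Percent of genes (y axis) with every ICA mouse above (blue) or below (orange) every vehicle mouse, by the mean log2 signal of the gene over 18 arrays (x axis). The orange bars increase from 0.373% under 5 to 4.53% at 9 or more, and the blue bars from 0.871% to 1.59%.

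After the genes that passed, the lower genes with the smallest p outside the clock lists were led by Tns4, Cdipt and Lin7c, none of which passed. Tns4, a member of the tensin family, was at 10.46, 10.77, 10.51 and 10.52 with vehicle and 9.66, 10.24, 9.81, 9.58 and 10.01 with ICA. The groups did not overlap (difference -0.71 ± 0.13, limma adjusted p = 0.121). Cdipt, the enzyme that makes phosphatidylinositol, was nearly constant in the vehicle mice at 11.29 to 11.32 and lay at 10.89 to 11.10 with ICA (difference -0.29 ± 0.06, adjusted p = 0.121). Lin7c, a scaffold of epithelial cell polarity, lay at 10.88 to 11.06 with vehicle and 10.51 to 10.74 with ICA (-0.37 ± 0.07, adjusted p = 0.165).

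Xkrx, a membrane protein of the XK family, had 5.79, 5.81, 5.85 and 5.80 with vehicle and 5.53, 5.16, 5.51, 5.25 and 5.43 with ICA, so the vehicle mice were tightly grouped above all others. Cyp27a1, a mitochondrial sterol hydroxylase of bile acid synthesis, differed by -0.75 ± 0.17, with 8.98 to 9.53 in vehicle mice and 8.30 to 8.89 in ICA mice. Acox2, the peroxisomal oxidase that shortens bile acid side chains, differed by -0.66 ± 0.15 (7.20 to 7.81 against 6.73 to 7.12). Fam102a and Cyb5b, the outer mitochondrial cytochrome b5, were also separated, with differences of -0.38 ± 0.08 and -0.26 ± 0.06. The adjusted p was 0.201 for Xkrx and 0.204 for the other 4. The list of ileal bile acid handling had 3 of 8 members higher, 5 lower and 0 separated, with a median of -0.07 that ran from -0.09 to 0.01 over the alternatives.

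Herpud1, a component of the degradation machinery of the endoplasmic reticulum, and 3000002C10Rik ranked here by p although their mice overlapped: Herpud1 lay at 10.11 to 10.57 with vehicle and 9.83 to 10.17 with ICA (-0.43 ± 0.09), and 3000002C10Rik at 8.02 to 8.34 and 7.58 to 8.07 (-0.50 ± 0.11).

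After Gm15998, the widest gaps on the lower side, outside the clock and interferon lists, were those of Ms4a10, Abcc2, Mpp1, Slc6a19 and Ttc36. Ms4a10, a membrane protein of the MS4A family, was at 10.52, 10.40, 10.33 and 10.28 with vehicle and 9.64, 9.77, 9.66, 9.85 and 9.84 with ICA, a gap of 0.42. Abcc2, the apical efflux pump for conjugated compounds, was at 10.88, 11.08, 10.85 and 10.84 with vehicle and 9.94, 10.52, 10.24, 10.26 and 10.50 with ICA, a gap of 0.33. Slc6a19, the main transporter of neutral amino acids at the brush border, was at 11.02, 10.89, 11.01 and 10.92 against 10.38, 10.60, 10.39, 10.25 and 10.58, a gap of 0.29.

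The model pools the spread over the 4 groups, and among marrow-only ICA mice these genes had an SD of 0.85 (Ms4a10), 1.08 (Abcc2) and 0.66 (Slc6a19) against 0.10, 0.23 and 0.15 among T cell ICA mice. The difference was -0.63 ± 0.26 for Ms4a10 (adjusted p = 0.655), -0.62 ± 0.36 for Abcc2 (0.784) and -0.52 ± 0.21 for Slc6a19 (0.624). In the model of the 9 T cell arrays alone Ms4a10, Abcc2 and Slc6a19 were among the 49 genes called. They were named for their gaps in these same 9 arrays, so that call was largely fixed in advance and is no support. In marrow-only mice the ICA differences of Abcc2 and Slc6a19 were -1.14 ± 0.36 and -0.60 ± 0.21.

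Mpp1, a membrane scaffold first known from red cells, had a gap close to that of Slc6a19, with 11.15, 11.15, 11.28 and 11.20 with vehicle and 10.86, 10.82, 10.81, 10.79 and 10.84 with ICA. Its ICA mice spanned only 10.79 to 10.86, and the difference was -0.37 ± 0.09 (adjusted p = 0.204). Ttc36, a protein of tetratricopeptide repeats, lay at 7.28 to 7.43 with vehicle and 6.82 to 7.0 with ICA (-0.45 ± 0.17, adjusted p = 0.586).

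On the higher side, 7 of the 12 genes with the smallest p outside the interferon list are themselves known as interferon-induced. Slfn5, a Schlafen family member, was at 6.99, 7.30, 7.37 and 7.40 with vehicle and 7.91, 7.76, 8.29, 8.56 and 8.80 with ICA (difference 1.0 ± 0.21, limma adjusted p = 0.183). Phf11d, a zinc finger protein, differed by 1.18 ± 0.27 and Rnf213, a large ubiquitin ligase, by 0.87 ± 0.19. Helz2, a helicase, and Ifit3b and Ifit1bl1, relatives of the antiviral Ifit proteins, differed by 0.66 ± 0.14, 1.04 ± 0.23 and 1.19 ± 0.25.

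Slfn4, a Schlafen gene of myeloid cells, had the widest spread of this group: 7.51, 8.24, 8.54 and 8.16 with vehicle and 9.71, 8.65, 9.62, 10.03 and 11.49 with ICA. The difference was 1.79 ± 0.39, and the gap of 0.12 was set by ICA mouse 2. The adjusted p was 0.204 for Slfn4, Phf11d, Rnf213, Helz2, Ifit3b and Ifit1bl1, and all were separated. In the interferon list 28 of 28 measured members were higher and 19 separated, with 0 called and a median difference of 0.76, against 0.10 in marrow-only mice. By comparison 46.6% of all genes were higher. In marrow-only mice the mean of the interferon list ran from 8.61 to 9.68 with vehicle and from 8.83 to 9.64 with ICA. The highest were vehicle mouse 3 and ICA mouse 1, whose arrays stood apart.

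Cdh5 and Cav1, known from endothelium, were also in this ranking. Cdh5, VE-cadherin, the adhesion molecule that joins endothelial cells, was at 8.92, 8.94, 8.86 and 9.11 with vehicle and 9.32, 9.30, 9.32, 9.29 and 9.30 with ICA. The 5 ICA mice were almost level, and the difference was 0.35 ± 0.07 (limma adjusted p = 0.183). Cav1, caveolin-1 of the small membrane pits of endothelium, fat and muscle, was at 8.19, 8.03, 7.83 and 8.08 with vehicle and 8.48, 8.37, 8.58, 8.47 and 8.41 with ICA (0.43 ± 0.10, adjusted p = 0.204). Both were separated, by 0.18.

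Sass6, a core protein of centriole assembly, differed by 0.63 ± 0.14 (8.84 to 9.14 against 9.35 to 9.84) and AW011738 by 0.70 ± 0.15 (7.04 to 7.23 against 7.43 to 8.31), with adjusted p of 0.204 and 0.203. Gm5431 and Trim30e-ps1, a pseudogene of the Trim30 family, were named for their gaps of 0.34 and 0.41. Their differences were 0.63 ± 0.22 and 0.80 ± 0.28 (limma adjusted p = 0.524 and 0.527). Among marrow-only mice, Sass6, AW011738, Gm5431 and Trim30e-ps1 were each highest in ICA mouse 1 and vehicle mouse 3 of their groups, as was the interferon list mean. Whether these genes follow the interferon list was not tested.

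Of the AhR list, 7 of 11 measured members were higher and 4 lower, with a median difference of 0.08 (0.12 in marrow-only mice), 1 separated and 0 called. The median ran from -0.04 to 0.10 over 20 alternatives: it was -0.04 among genes with a mean of at least 6, 0.02 and 0.04 without ICA mouse 2 or 3, and 0.03 without vehicle mouse 2. The mean of the list did not overlap between groups, at 6.88 to 6.92 with vehicle and 6.97 to 7.0 with ICA. In marrow-only mice it did not overlap either, at 6.88 to 6.97 with vehicle and 6.98 to 7.09 with ICA. Cyp1a1, the classical enzyme target of the receptor, was at 5.71, 5.90, 5.69 and 6.00 with vehicle and 6.30, 6.25, 6.16, 6.36 and 6.33 with ICA. Every ICA mouse was above every vehicle mouse by at least 0.16, and the difference of 0.45 ± 0.11 (1.37-fold) had a limma adjusted p of 0.265. In marrow-only mice Cyp1a1 differed by -0.11 ± 0.11.

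Ahrr, the AhR repressor, was at 5.83, 5.80, 5.84 and 5.41 with vehicle and 6.17, 5.84, 6.01, 5.97 and 5.78 with ICA, which overlap at the lowest ICA mouse (0.23 ± 0.11, adjusted p = 0.728). The other named genes of this pathway gave smaller values than Cyp1a1. They were Nqo1, a quinone reductase, 0.22 ± 0.12, Tiparp, an ADP-ribosylating repressor of the receptor, -0.10 ± 0.11, Cyp1b1 0.01 ± 0.14 and Ahr itself -0.04 ± 0.07. Il22, a barrier cytokine made by AhR-dependent lymphocytes, differed by 0.24 ± 0.16 at signals of 2.53 to 3.43.

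The other lists are described by counts and medians beside those of all genes, in which 46.6% were higher, 1.11% were separated higher and 1.78% lower. All 16 measured genes of cholesterol synthesis were lower with ICA, 2 of them separated and 0 called, with a median difference of -0.29. Insig1, the membrane protein that holds back sterol synthesis, was at 10.39, 10.78, 10.41 and 10.30 with vehicle and 9.61, 10.33, 9.97, 10.08 and 9.99 with ICA (-0.47 ± 0.14, adjusted p = 0.41). The groups overlapped through ICA mouse 2.

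The separated members were Sc5d, a sterol desaturase, at 10.38 to 10.52 with vehicle and 9.98 to 10.36 with ICA, and Nsdhl, a sterol dehydrogenase, at 9.82 to 10.28 and 9.21 to 9.74. In marrow-only mice the list median was 0.24, on the other side of 0. ICA mouse 1 had the lowest mean of the list, 9.15, and without it all 16 genes were still lower, with a median of -0.21.

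Genes of enterocyte absorption were lower for 19 of 21, with 3 separated lower, 0 called and a median of -0.19, close to the -0.22 of marrow-only mice. Slc2a5, the fructose transporter, was at 9.08, 9.0, 9.01 and 8.97 with vehicle and 7.83, 8.88, 8.19, 8.41 and 8.14 with ICA (-0.72 ± 0.19, adjusted p = 0.339). Apob, the structural protein of chylomicrons, was at 12.79 to 12.86 with vehicle and 12.54 to 12.71 with ICA. Cubn, an endocytic receptor for cobalamin and its carrier, was at 12.29 to 12.37 with vehicle and 11.46 to 12.17 with ICA. Without ICA mouse 1, 15 of 21 were lower and the same number, 3, were separated. Goblet cell genes had a median of -0.06, with Muc2, the gel-forming mucin, at 13.54 to 13.62 with vehicle and 13.50 to 13.57 with ICA.

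Fibroblast and matrix genes were higher for 16 of 17, with 5 separated and 0 called, and a median of 0.21 against 0.00 in marrow-only mice. The separated genes were the collagens Col1a1, Col1a2 and Col3a1, the matrix protein Postn and the collagen-binding proteoglycan Lum. Col3a1 was at 9.18, 9.27, 9.09 and 9.04 with vehicle and 9.47, 9.42, 9.30, 9.46 and 9.63 with ICA (0.31 ± 0.09, adjusted p = 0.373). The mean of the list was 9.18 to 9.32 in the vehicle mice and 9.33 to 9.60 in the ICA mice, which do not overlap.

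Markers of other cell types of the gut wall lay on the same side. Smooth muscle genes were higher for 12 of 12 (median 0.11, 0 separated), endothelial genes for 11 of 12 (median 0.09, 1 separated, which is Cdh5) and adipose genes for 8 of 9 (median 0.46, 0 separated). The adipose list mean was 7.76 to 8.76 with ICA and 7.43 to 8.06 with vehicle, highest in ICA mice 3 and 4; Adipoq, the fat cell hormone adiponectin, was at 8.03 and 7.58 in these and at 6.19 to 7.01 with vehicle. How far the amount of muscle, vessel or fat in a sample had a part in the matrix genes was not tested.

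Mast cell genes were higher for 9 of 12, with a median of 0.21, 0 separated and 0 called; the median in marrow-only mice was -0.09. Mcpt1, a protease of mucosal mast cells, was at 4.65, 4.68, 6.24 and 5.35 with vehicle and 5.92, 7.80, 7.59, 7.46 and 7.71 with ICA, the largest difference among the genes ranked by p (2.06 ± 0.45, 4.18-fold, limma adjusted p = 0.204). The overlap came from ICA mouse 1 and vehicle mouse 3. Without ICA mouse 1 the gap was 1.21 and the difference 2.41 ± 0.42 (adjusted p = 0.0801).

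Mcpt2, a related protease, was also low in ICA mouse 1, with 5.40 in ICA mouse 1 against 7.45 to 7.93 in the other ICA mice and 4.73 to 6.16 with vehicle (1.89 ± 0.50). Cpa3, the mast cell carboxypeptidase, differed by 0.87 ± 0.23, while Kit, the growth factor receptor of mast cells, differed by 0.03 and Hdc, the histamine-forming enzyme, by -0.31. The differences of Mcpt1 and Mcpt2 in marrow-only mice were -1.13 ± 0.45 and -1.00 ± 0.50.

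Neutrophil genes were lower for 16 of 17, with a median of -0.33, 0 separated and 0 called. The median ran from -0.40 to -0.15 over the alternatives and was -0.20 and -0.18 without ICA mouse 3 or 4, and -0.19 and -0.15 without vehicle mouse 2 or 4. Ngp, a granule protein, was at 5.15, 6.63, 6.77 and 6.19 with vehicle and 5.30, 4.92, 4.98, 5.57 and 5.90 with ICA. Vehicle mouse 1 lay among the ICA mice and the other vehicle mice above them (-0.85 ± 0.28, adjusted p = 0.513).

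Paneth cell genes had a median of 0.25, with 7 of 11 higher and 0 separated, and their spread was among the vehicle mice. Defa22, an antimicrobial alpha-defensin, was at 4.50, 11.27 and 12.91 in vehicle mice 2, 3 and 4, and at 13.92, 12.38, 13.37, 13.80 and 13.62 with ICA. Vehicle mouse 1 was above every ICA mouse, so the difference of 2.75 ± 1.12 (adjusted p = 0.643) was within the spread of that group. The alpha-defensins are close copies of each other, and a probe set may read several. Lyz1, Paneth cell lysozyme, was at 12.57 to 13.68 with vehicle and 12.83 to 13.58 with ICA.

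T cell markers had a median of 0.01 with 10 of 16 higher, and genes of cytotoxic lymphocytes -0.03 with 8 of 17 higher; 0 of either list were separated. Cd3e, a chain of the T cell receptor complex, was at 8.93 to 10.12 with vehicle and 8.91 to 9.64 with ICA (-0.15 ± 0.30), and Gzmb, the killer cell protease, at 7.96 to 9.41 and 7.56 to 9.65 (0.01 ± 0.43). Foxp3, of regulatory T cells, differed by 0.00 ± 0.14. Interferon gamma response genes had a median of 0.01 and 0 separated. Reg3g, an epithelial bactericidal lectin, lay at 12.18 to 12.55 with vehicle and 11.83 to 12.70 with ICA.

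Crypt stem cell genes had a median of 0.04, with Lgr5, their defining marker, at 8.71 to 9.15 against 8.57 to 9.26. Enteroendocrine genes were higher for 13 of 14 (median 0.13, from 0.05 to 0.18 over the alternatives), with 0 separated. The list mean was 7.38 in vehicle mouse 3, while the other vehicle mice (7.83 to 8.00) lay within the ICA range of 7.79 to 8.09. B and plasma cell genes were higher for 13 of 15 with a median of 0.20, which was 0.04 without ICA mouse 1. Of genes that answer to circulating glucocorticoids, 9 of 11 were lower (median -0.21) and 2 separated: Fkbp5, a chaperone that restrains the glucocorticoid receptor, at 7.83 to 8.14 with vehicle and 7.38 to 7.82 with ICA (-0.45 ± 0.12, adjusted p = 0.333), and Nfkbia, the inhibitor of NF-kappaB, at 8.85 to 9.17 and 8.77 to 8.84.

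Some lists held a single separated gene, and 2.89% of all genes were separated. Atf4, the transcription factor of amino acid stress, was at 9.03 to 9.14 with vehicle and 8.66 to 8.90 with ICA. Il15, a cytokine of intraepithelial lymphocytes, was at 8.15 to 8.49 and 7.90 to 8.09. For Hsph1, a heat shock protein, the ranges were 7.47 to 7.95 and 7.99 to 8.77. None of them passed (limma adjusted p = 0.517, 0.646 and 0.517), and their lists had 14, 15 and 9 measured members. The list of Atf4 had 5 higher and 9 lower, with a median of -0.05. Pnpla3, a lipid droplet protein, was separated higher in the fatty acid synthesis list, at 6.22 to 6.62 with vehicle and 6.71 to 7.85 with ICA (limma adjusted p = 0.665). Of 10 measured members of that list 9 were higher, with a median of 0.28 against 0.26 in marrow-only mice. Among T cell mice Pnpla3 was highest in ICA mice 3 and 4 (7.85 and 7.67), which also had the highest adipose list means (8.76 and 8.59). How far fat in a sample had a part was not tested.

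**Figure D4:**
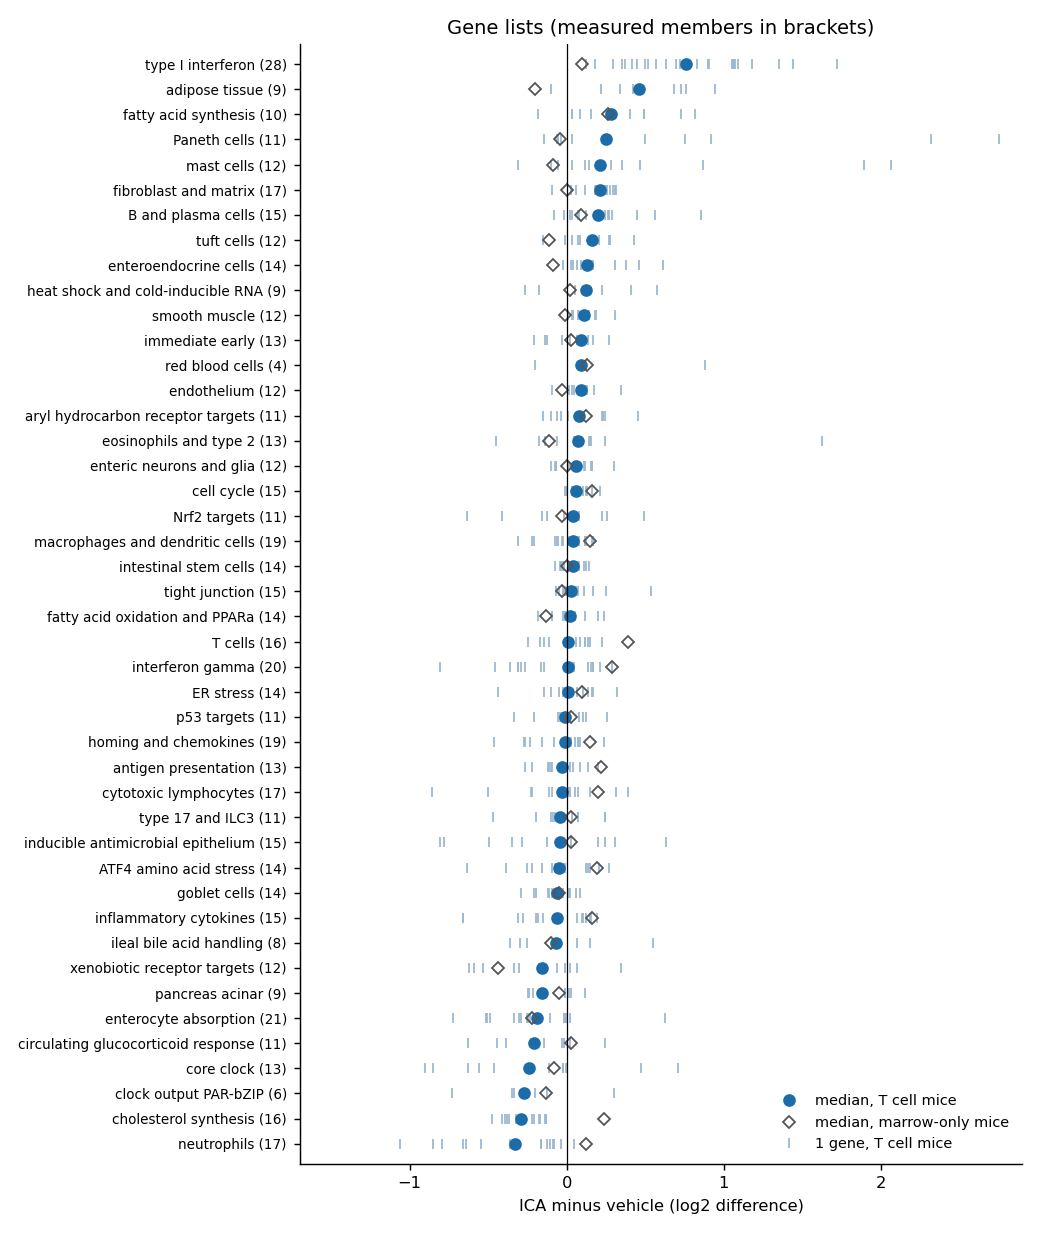
ICA minus vehicle (x axis, log2 difference) for 44 gene lists (y axis, measured members in brackets): ticks are single genes and filled circles list medians in T cell mice, and open diamonds are list medians in marrow-only mice. Type I interferon has the highest median in T cell mice (0.76) and neutrophils the lowest on the values as deposited (-0.33, from -0.40 to -0.15 over the alternatives); cholesterol synthesis lies at -0.29 in T cell mice and 0.24 in marrow-only mice.

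**Figure D5:**
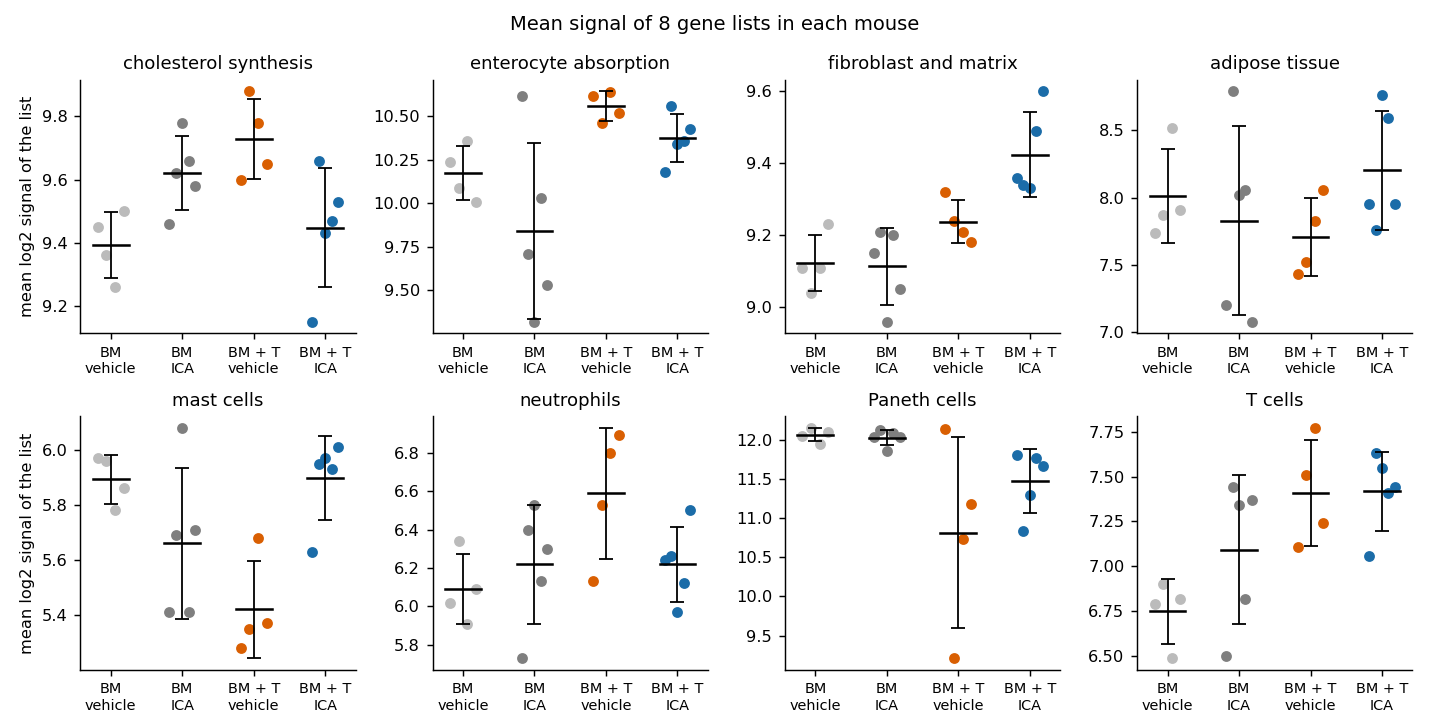
Mean log2 signal of 8 gene lists (y axis) in each of the 18 mice, by group (BM, marrow only; BM + T, marrow and T cells), with group means and bars of 1 SD. Fibroblast and matrix means do not overlap between T cell mice given ICA and vehicle, while Paneth cell means of the vehicle mice run from 9.21 to 12.14.

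Whether a difference was particular to mice with T cells was tested by the interaction, the ICA difference in T cell mice minus that in marrow-only mice. It called 0 of 22180 genes (0%) in limma, with 1482 genes at an unadjusted p under 0.05. The smallest adjusted p was that of Ciart, 0.294, for an interaction of -0.97 ± 0.17. For Mcpt1 the interaction was 3.19 ± 0.63 (adjusted p = 0.669), for Cdipt -0.35 ± 0.08, for Cyp1a1 0.56 ± 0.15, for Insig1 -0.84 ± 0.20 and for Fkbp5 -0.48 ± 0.16; the adjusted p was 0.677 for Cdipt, Cyp1a1 and Insig1 and 0.71 for Fkbp5. Leaving out the 3 arrays that stood apart (from marrow-only mice the arrays of vehicle 3 and ICA 1, from T cell mice that of ICA 1) brought 3 genes past the threshold, Mcpt1, Mal and Trim30e-ps1, and leaving out marrow-only ICA mouse 3 brought 2, Mcpt1 and Cpa3.

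Of 22180 genes, 640 were separated in T cell mice (2.89%) and 483 in marrow-only mice (2.18%). Genes separated in both arms in the same direction numbered 5, all lower with ICA: Per3, A630066F11Rik, Rufy2, Cilk1 and Slc6a8. Whether unrelated arms would share as many was not tested. Slc6a8, the creatine transporter, differed by -0.33 with T cells and -0.25 without, Rufy2, an endosome protein, by -0.24 in each arm, Cilk1, a kinase of the primary cilium, by -0.16 and -0.14, and A630066F11Rik by -0.37 and -0.18. Separated in opposite directions were 2 genes, Fgf18, a growth factor (0.22 with T cells, -0.14 without), and Nsdhl (-0.38 and 0.24). These 7 names were read from the table after the counts were made and carry no test of their own.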

How the data were processed

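RNA from the ileum of 18 mice was measured on Affymetrix whole-transcript mouse gene arrays. The authors deposited a table of 41345 probe sets, taken here as log2 values after RMA; RMA, Partek and GenomeStudio are named, without versions, in the submitters' processing notes, and no source used here gives the log base, background step or filters. The values were used without further normalization or filter. Of the probe sets, 23521 had 1 gene symbol in the platform annotation, 1814 several and 16010 none; each of 22180 genes was read on its single-symbol probe set with the highest mean over the 18 arrays.

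Groups were compared in R 4.3.3 with limma 3.58.1: a mean for each of the 4 groups over all 18 arrays, moderated statistics with a trend (14 residual degrees of freedom), two-sided tests and Benjamini-Hochberg adjustment over all genes at 0.05. The procedure was tested on simulated data. Mice are separate animals, and their number limits the precision.

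Named were all genes that passed, the 12 with the smallest p and the 6 separated genes with the widest gap in each direction outside the clock and interferon lists, up to 4 members of each list by smallest p, and preset genes of AhR, immune and epithelial interest; further separated list members and genes separated in both arms were named after their values were seen. The 44 gene lists held 659 entries, 594 of them measured. Members, lists and rules were chosen with earlier results of these data known. Promoter windows came from RefSeq GRCm38.p6. Figures were drawn with matplotlib 3.10.9 in Python 3.11.15. The alternatives are given in the closing section.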

Additional observations from a re-analysis of the deposited data

Results flagged for a closer look

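Among 104 sets of values (52 genes in the groups of 4 and 5 T cell mice), 10 held a mouse far from the rest of its group by a gap test that chance alone meets in about 1 set in 20. Of the ICA mice, mouse 1 was low for Mcpt1 (5.92, others 7.46 to 7.80) and Cyp1b1 (6.35, others 6.78 to 6.91) and high for Foxp3 (6.38, others 6.03 to 6.10), and mouse 2 was low for Ifit1bl1 (9.23, others 10.28 to 10.56). Of the vehicle mice, mouse 4 was low for Ahrr (5.41, others 5.80 to 5.84) and high for Cyp1b1 (7.23, others 6.51 to 6.63) and Reg3g (12.55, others 12.18 to 12.20). Vehicle mouse 1 was low for Isg15 (6.27, others 6.94 to 7.03), mouse 2 was high for Abcc2 (11.08, others 10.84 to 10.88) and mouse 3 was low for 3000002C10Rik (8.02, others 8.29 to 8.34).

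ICA minus vehicle differed in direction between T cell and marrow-only mice, with every mouse separated in both, for Fgf18 (interaction 0.36 ± 0.10) and Nsdhl (interaction -0.63 ± 0.15). Neither interaction passed over all genes (limma adjusted p = 0.677 for both).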

How the results depend on the processing

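The count of 3 changed genes was 3 or 4 after quantile normalization, centring, a filter at a mean of 6, other probe set rules and other priors. It was 49 with only the T cell arrays, 13 with array weights and 39 without the 3 arrays that stood apart, and 1 to 9 with each T cell mouse left out; Per3, Ciart and Gm15998 were called in all of these except without T cell vehicle mouse 2, where Per3 alone was. The 9 came without ICA mouse 2. The 640 separated genes became 692 after quantile normalization, 579 after centring and 1265 without the 3 arrays, and 890 to 1265 with each T cell mouse left out, where fewer mice have to be separated. The interaction count of 0 became 3 without the 3 arrays and 0 to 2 with each mouse left out. Of 656 values of 33 named genes, 0 changed sign, 2 lost and 44 gained the threshold. These 33 genes were picked by p or by gap in these same data. A separated gene cannot change sign when a mouse is left out, so the 0 was largely fixed in advance and is no support. Other named genes, such as Cyp1a1 and Insig1, were not among the 33. Of 880 list medians, 10 moved by more than the spread between mice, 7 of them those of the aryl hydrocarbon receptor list (-0.04 to 0.10). Medians ran from 0.12 to 0.45 for mast cells, 0.08 to 0.45 for Paneth cells and 0.31 to 0.63 for adipose tissue. With mouse number as a replicate block 4 genes were called, Arntl in addition. Same-numbered mice of the T cell groups correlated by only 0.03 to 0.17 in their deviations, and 2 of 8 matched their own number best, so the numbers were not taken as pairs. In a fit of all 41345 probe sets, adjusted over all of them, 2 single-symbol probe sets were called, and 0 of the 17824 without a single symbol. Of these 17824, 134 were separated higher and 244 lower, together 2.12%, against 2.89% of the single-symbol probe sets.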
